A study of Mus musculus with 24 samples.

Results

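6KO1 and 6KO2 are mouse embryonic fibroblast (MEF) lines in which the same 6 genes for histone H3 lysine 9 methyltransferases (H3K9 KMTs) have been inactivated: Suv39h1, Suv39h2, Eset1 (Setdb1), Eset2 (Setdb2), G9a (Ehmt2) and Glp (Ehmt1). They were compared directly, 3 libraries of 6KO1 (clone B1A6) against 3 libraries of 6KO2 (clone E2F4), which are 6 of the 24 total RNA libraries in the study. Both lines descend from 1 fibroblast clone with a floxed Eset1 gene and a tamoxifen-inducible Cre, but the CRISPR/Cas9 disruptions were made in a different order. For 6KO1, Suv39h1 and Suv39h2 were disrupted first, and Eset2, G9a and Glp followed in a further round. In the making of 6KO2, Eset2 was disrupted first, then G9a and Glp, and Suv39h1 and Suv39h2 last. Eset1 was deleted in both at the end by 4-hydroxytamoxifen (4-OHT), given at 1 μM for 2 days and followed by 2 days in normal medium. Every line named here descends from that floxed clone. After the CRISPR/Cas9 disruptions the authors added a further construct with inducible Cre and puromycin resistance, and kept the lines under puromycin. WT denotes the floxed line without 4-OHT, although the treatment field of the labels names 4-OHT for all samples. E1 S1S2 is the line before the last CRISPR round of 6KO1 (clone B1), and E1E2 G9Gl is the line before the last round of 6KO2 (clone E2), both after 4-OHT. Each of these lines is 1 clone with 3 biological replicates, so differences between genotype, order of disruption and clone cannot be told apart, and the p-values below measure the spread between libraries of a clone.

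H3K9 methylation is a histone mark of silent chromatin. Suv39h1 and Suv39h2 deposit H3K9me3 mainly at pericentric satellite repeats, Setdb1 is recruited by KRAB zinc finger proteins to endogenous retroviruses, and G9a and Glp act as a pair that deposits H3K9me1 and H3K9me2 over wide regions of the genome. Long terminal repeat (LTR) elements of the ERV1 and ERVK families, LINE elements and satellites are among the repeats held silent by these marks. RNA from such repeats can be sensed inside cells by receptors such as MDA5, the product of Ifih1, which lead to interferon production and to the expression of interferon-stimulated genes.

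Read depth was alike in the lines, at 30046687 to 33800828 counts per 6KO1 library and 27298161 to 30921742 per 6KO2 library. The share of counts from repeat elements was 21.5% to 21.9% in 6KO1 and 18.1% to 18.8% in 6KO2, and mitochondrial genes took 2.80% to 3.16% against 1.74% to 2.14% of the gene counts. Levels below are normalized counts, scaled by factors from the genes (TMM) for genes and repeats alike. Of 11 fibroblast markers, all passed the low-count filter, and their summed level was 97911 to 109660 in 6KO1, 143880 to 147210 in 6KO2 and 172540 to 215870 in WT. Of these markers 2 (18.2%) were called lower in 6KO1 (Pdgfra and Twist1, given below), 0 higher, and 9 were not called by the rule given below. Over all genes tested 7.1% were called lower and 9.77% higher. The log2 fold change of 6KO1 against 6KO2 was below 0 for 10 of the 11 markers. Its median was -0.62, beside 0.0186 over all genes tested. Vim, Fn1, Col1a1 and Col3a1 were abundant in both lines. Thy1, another fibroblast marker, averaged 0.291 in 6KO1 and was not called different from 6KO2. In bulk RNA fewer cells of a type and less RNA per cell cannot be told apart. None of the 3 germ cell markers (Dazl, Ddx4, Sycp3) passed the filter.

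The targeted genes were examined first. Gene-level counts include exons outside the disrupted parts, so they do not check the mutations. Suv39h2 was at 1090, 1084 and 1100 in 6KO1 and 471, 552 and 508 in 6KO2, and was the single KMT gene of the 6 that was called different (log2 fold change 1.10 ± 0.08 SE, adjusted p = 2.76e-11 by edgeR). Its 6KO1 libraries were all above its 6KO2 libraries, and the call was lost when fold changes were centred on the chromosome median. Suv39h1 was at 870, 796 and 830 against 1587, 1597 and 1558, with groups that did not overlap, a log2 difference of -0.93 and no call. Ehmt2 differed by -0.76, Setdb2 by 0.49 and Setdb1 by 0.39 on the log2 scale, and Ehmt1 overlapped between the lines (-0.11, adjusted p = 0.208).

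Here and below a gene or repeat is called when the log2 fold change of 6KO1 against 6KO2 is at least 1 in size and the Benjamini-Hochberg adjusted p of edgeR's quasi-likelihood test is at most 0.01. Of 18565 genes tested, 3131 were called (16.9%), 1813 higher (9.77%) and 1318 lower (7.1%) in 6KO1. The libraries of the lines did not overlap for 12888 genes (69.4%). For scale, 6KO1 differed from WT at 3831 genes higher (20.6%) and 1900 lower (10.2%), and 6KO2 at 2848 (15.3%) and 1000 (5.39%). Both of these comparisons share the WT libraries. Of the genes higher in 6KO1 than in 6KO2, 957 (52.8%) had a mean WT level under 10, as had 425 (32.2%) of the genes lower in 6KO1 and 16.9% of all genes tested. Genes low in WT pass the filter on low counts mainly through lines where they are higher. Their excess among called genes is therefore partly fixed by that filter.

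Genes of the interferon response were called higher in 6KO1 more often than genes at large. Of 57 tested interferon-stimulated genes 44 were higher in 6KO1 (77.2%) and 0 lower, beside 9.77% and 7.1% of all genes, and their median log2 fold change was 1.85 against 0.0186 over all genes tested. The list median against WT was 3.82 in 6KO1 and 2.40 in 6KO2, so it lay above WT in both lines. Oas1g, Oas2 and Oas3 encode oligoadenylate synthetases, which are activated by double-stranded RNA and switch on RNase L. Oas1g was at 892, 901 and 1006 in 6KO1 and 28.7, 17.0 and 18.6 in 6KO2.

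**Figure D1:**
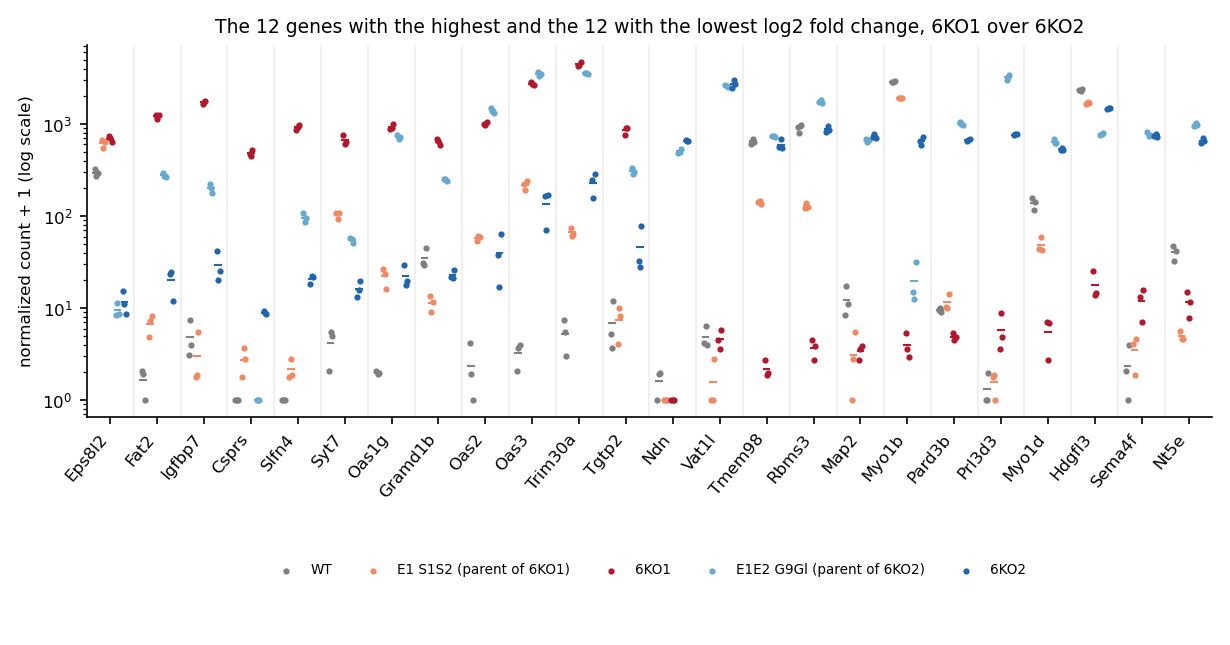
Normalized counts per library (log axis) plus 1 of the 12 genes with the highest and the 12 with the lowest log2 fold change in WT, the lines before the last CRISPR round and both 6KO lines, where each point is 1 library and the short bar its group mean. Oas1g and Trim30a stand high in all 3 6KO1 libraries and low in all 3 6KO2 libraries, and Ndn and Map2 the other way round.

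The 6KO1 libraries of Oas1g all lay far above the 6KO2 libraries (log2 fold change 5.42 ± 0.16 SE, adjusted p = 4.94e-18 by edgeR). Oas3 was at 2834, 2744 and 2620 against 165, 69.2 and 167, again without overlap. Trim30a, a TRIM family protein induced by interferon and pathogen signals, was at 4291, 4399 and 4670 in 6KO1 and 248, 155 and 285 in 6KO2, against a WT mean of 4.29 (log2 fold change 4.27). Tgtp2, a GTPase induced by interferon gamma, and Slfn4, a Schlafen family gene, showed the same separation, with log2 fold changes of 4.23 and 5.53. Ifi27l2a was at 195, 307 and 269 against 4.11, 5.67 and 2.19. Within 6KO2, replicate 2 had the lowest level of Oas3, Trim30a and Irf7 among the 3 libraries.

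A regulator and a sensor of the response, Irf7 and Ifih1, were called too, with smaller folds. Both were chosen after their values were seen. Irf7, the transcription factor that amplifies interferon production, was at 2311, 2337 and 2372 in 6KO1 and 302, 166 and 332 in 6KO2 (log2 fold change 3.13). Ifih1 was at 5093, 5363 and 5510 against 1659, 1526 and 1894 (1.65). For both genes every 6KO1 library was above every 6KO2 library. The interferon genes themselves were close to the limit of detection, since the summed level of 20 ligand genes was 22.7, 25.9 and 32.0 in 6KO1, 12.3, 13.6 and 11 in 6KO2, and between 0 and 1.81 in WT, and Ifnab alone passed the filter on low counts.

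Genes of antigen presentation by MHC class I and sensors of nucleic acids were also called in 1 direction, read beside the same 9.77% and 7.1% of all genes. Of 17 antigen presentation genes 14 were higher in 6KO1 (82.4%) and 0 lower (median log2 fold change 1.83). H2-Q4, a non-classical class I gene, was at 5331, 5346 and 4974 in 6KO1 and 303, 241 and 359 in 6KO2 (log2 fold change 4.12), and the lines did not overlap. Nlrc5, the transcriptional activator of the class I genes, was at 3879, 3465 and 3359 against 572, 469 and 610 (2.70). Reads of the class I genes can be shared between near-identical copies, so the split between H2-Q members is uncertain. Of 27 sensors and their adaptors 11 were higher (40.7%) and 0 lower, with a median of 0.83. Among them were Tlr7, an endosomal receptor for single-stranded RNA (log2 fold change 2.76), and Zbp1, a sensor of Z-form nucleic acids (2.36). Schlafen genes and interferon-inducible GTPases had 15 of 21 members higher (71.4%) and 1 lower, with a median of 2.06. That member was Slfn3, at 14.8, 19 and 10.7 in 6KO1 and 129, 109 and 139 in 6KO2. Of 23 chemokines and cytokines 3 were higher (13%), 9 lower (39.1%) and 11 not called, with a median of -0.42. Cxcl5, a neutrophil attractant, was at 29.7, 59.6 and 59.2 in 6KO1 and 748, 404 and 826 in 6KO2 (log2 fold change -3.74). Csf2, which encodes the growth factor GM-CSF, was also lower in 6KO1 (-4.21). Il6, an inflammatory cytokine chosen after its values were seen, was higher, at 126, 111 and 143 against 46.2, 23.8 and 42.8.

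Promoter windows of the called genes were searched for the letters GAAANNGAAA, which are the core of the interferon-stimulated response element bound by IRF factors. Windows ran from 250 bases before to 50 after the RefSeq start (GRCm38.p6), and both strands were searched. The letters were found in 423 of 11111 tested genes with a window (3.81%), in 90 of 1119 genes higher in 6KO1 (8.04%), in 28 of 701 genes lower in 6KO1 (3.99%) and in 22 of 44 windows of the interferon list (50%). Over all 32851 windows, whatever the gene, the share was 3.44%. A match describes letters in the window and not a bound site. Among the members of that list called higher in 6KO1 it was 17 of 33 (51.5%), near the share of the whole list. The 26 bases around the match are printed for 8 interferon-stimulated genes called higher in 6KO1. They were taken from genes with a match, so its presence in each was fixed by that choice. The 10 matching bases are in capitals and read on the strand given.
Oas1g, chr5:120887608-120887633, minus strand: gggaaatgGAAACTGAAAatctactt
Oas1a, chr5:120907522-120907547, minus strand: gggaaatgGAAACTGAAAatctactt
Oas3, chr5:120777717-120777742, minus strand: agggaggaGAAAACGAAAgtgaaggg
Trim30a, chr7:104446106-104446131, plus strand: ggaactgaGAAAAAGAAActaaaaac
Tgtp2, chr11:49064265-49064290, minus strand: caggaatcGAAACCGAAAcctactct
Tgtp1, chr11:48992306-48992331, minus strand: caggaatcGAAACTGAAAcctacctg
Rsad2, chr12:26456555-26456580, plus strand: tgttttctGAAAATGAAAgttggacc
Ifit3b, chr19:34607795-34607820, minus strand: ggaaagtaGAAACTGAAAcagactta
Oas1g and Oas1a share all 26 bases, and reads of such near copies may have been divided between them in counting.

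Of 33 p53 targets 13 were higher (39.4%) and 1 lower (3.03%), beside 9.77% and 7.1% of all genes, and their median was 0.75. Cdkn1a encodes p21, the CDK inhibitor induced by p53, and was chosen after its values were seen. It stood at 3239, 3333 and 3206 in 6KO1 and 1068, 1015 and 1042 in 6KO2, against a WT mean of 208 (log2 fold change 1.65). The WT level was thus exceeded in every library of both lines, and 6KO1 lay above 6KO2 throughout. Eda2r, a p53-induced TNF receptor family member, was at 1533, 1730 and 1678 against 298, 303 and 340, whereas Perp, a p53 target of cell junctions, was the list's lower gene at 6.11, 13.8 and 11.7 against 116, 158 and 132. Against WT the list's median was 0.65 in 6KO1 and 0.30 in 6KO2. None of 33 DNA replication genes was called, and of 39 mitosis genes 1 was higher and 2 lower, with medians of 0.013 and -0.014 beside 0.0186 over all genes. Individual regulators of the G1 phase were called in opposite directions. Ccnd2, which encodes cyclin D2, was at 463, 442 and 478 against 2803, 2867 and 2872, and Ccne1, which encodes cyclin E1, at 824, 877 and 849 against 282, 264 and 246. Cdkn1c, the imprinted CDK inhibitor p57, was at 742, 697 and 722 against 117, 166 and 157. In each of these 3 genes the lines did not overlap.

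Several genes of contractile fibroblasts were lower in 6KO1. Acta2, smooth muscle actin, was at 1367, 1650 and 1620 in 6KO1 and 6233, 6453 and 5943 in 6KO2 (log2 fold change -2.01). Its 6KO2 libraries lay near the WT mean of 5902, and the gene was chosen after its values were seen. Tagln, an actin-binding protein of smooth muscle, was at 326, 359 and 382 against 4846, 5284 and 4883 (-3.81), with a WT mean of 9557. Of 14 contractile genes 5 were lower (35.7%) and 3 higher (21.4%), beside 7.1% and 9.77% of all genes, with a median of -0.63, among the latter Myh11, a smooth muscle myosin (log2 fold change 2.45). The summed level of the 4 smooth muscle markers was 1735 to 2046 in 6KO1, 10848 to 11761 in 6KO2 and 13890 to 18528 in WT. The part of the smooth muscle and fibroblast markers in these differences was not tested.

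Extracellular matrix proteins had 14 of 40 members lower (35%) and 4 higher (10%), beside 7.1% and 9.77% of all genes (median -0.61). Dcn, decorin, was at 119, 148 and 145 in 6KO2 and averaged 0.576 in 6KO1, and Fbln1, a fibulin of elastic fibres, averaged 146 ± 12.8 (SD, n = 3) in 6KO2 and 1.23 ± 0.620 in 6KO1. Collagens were split, with 7 of 28 higher (25%) and 4 lower (14.3%) and a median of 0.07. Col28a1 was higher (142, 110 and 152 against 12.3, 12.5 and 12.1) and Col11a1, a fibrillar collagen of cartilage, lower (4.36, 3.46 and 7.77 against 106, 136 and 82.2). Mmp16, a membrane-bound matrix protease, averaged 0.288 in 6KO1 and 143 in 6KO2. None of 16 integrins was higher and 3 were lower (18.8%, median -0.27), Itga7, a laminin receptor chain, among them (log2 fold change -1.17).

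Transcription factors of mesenchyme and limb had 12 of 47 members lower (25.5%) and 1 higher (2.13%), beside 7.1% and 9.77% of all genes (median -0.35). Twist1, a mesenchymal factor, averaged 305 ± 20.6 in 6KO2 and 17.7 ± 6.13 in 6KO1 (SD, n = 3). Osr1 and Tbx4, factors of limb and body wall mesenchyme, averaged 90.9 and 40.5 in 6KO2 and less than 1 count in 6KO1. The receptor Pdgfra, a fibroblast marker, was at 1.75, 1.73 and 5.82 in 6KO1 and 72.9, 73.8 and 81.1 in 6KO2. Signalling genes of these tissues were also called lower more often than higher. Among TGFβ and BMP genes 9 of 31 were lower (29%) and 2 higher (median -0.11), and among Wnt genes 7 of 30 (23.3%) and 1 (-0.15). Among growth factors and receptors 11 of 37 were lower (29.7%) and 6 higher (16.2%, median -0.08), and among guidance genes 12 of 41 (29.3%) and 2 (-0.43). With a mean above 100, Wnt genes had 1 lower and 0 higher, and their median turned to 0.12. At that level 6 growth factors and 6 guidance genes were lower, and the growth factor median was -0.030. Over all genes at that level 468 were lower and 670 higher. Ephb2, an ephrin receptor, averaged 0.612 in 6KO1 and 148 in 6KO2.

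**Figure D2:**
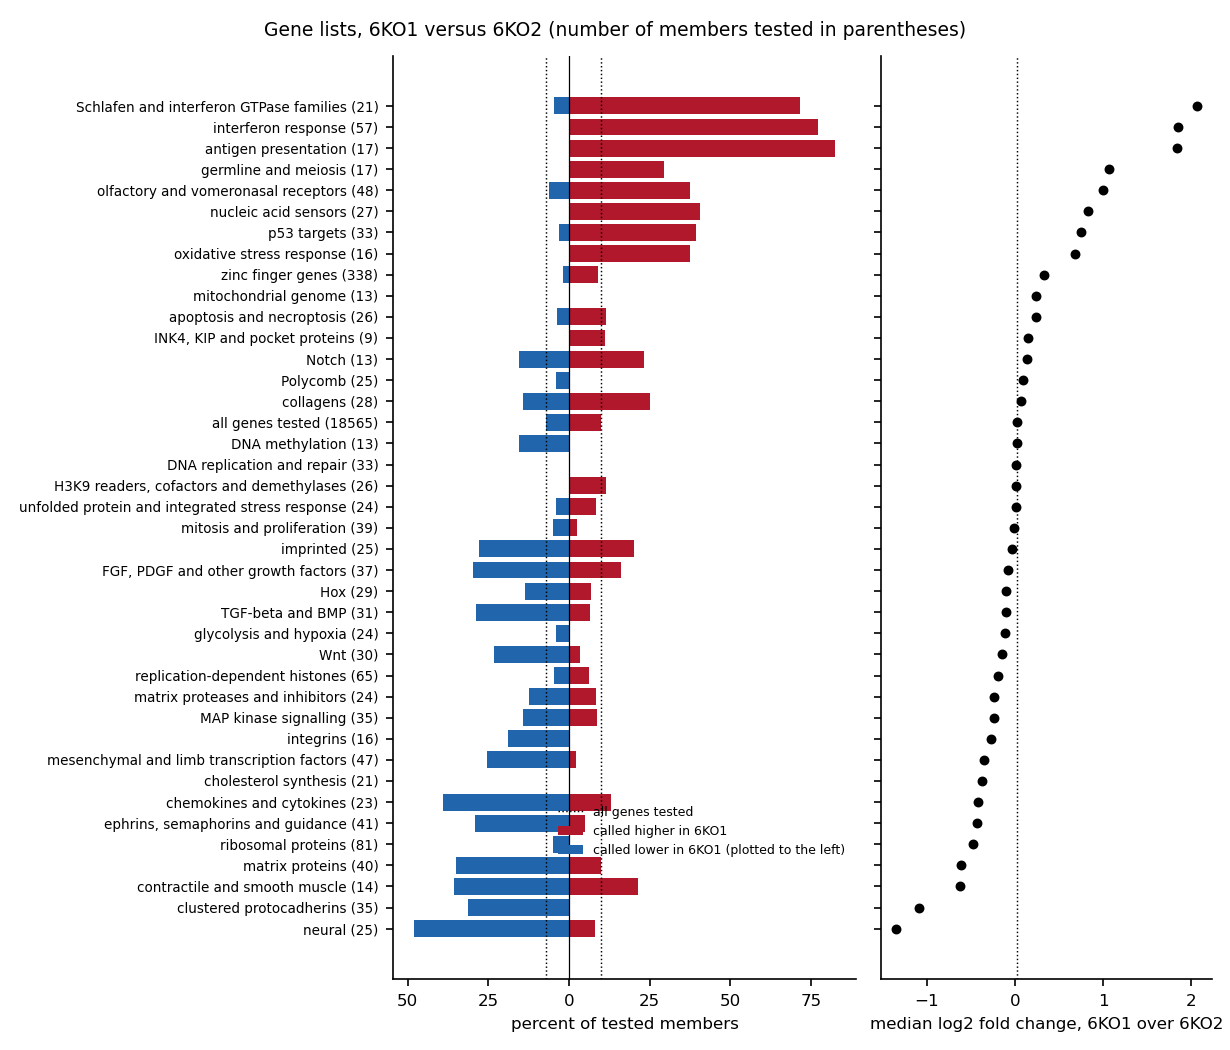
Percent of tested members called higher (to the right) and lower (to the left) in 6KO1 for gene lists with at least 9 tested members, where dotted lines mark the 9.77% higher and 7.1% lower of all genes tested, and beside it the median log2 fold change of each list. Interferon, antigen presentation and Schlafen lists extend far to the right, and neural genes, matrix proteins and protocadherins to the left.

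Neural genes were lower in 12 of 25 cases (48%) and higher in 2 (8%), beside 7.1% and 9.77% of all genes (median -1.35). Among neural genes with a mean above 100, 5 were lower and 1 higher, and the median was -0.74. Over all genes at that level 468 were lower and 670 higher. Shares at that level were not taken, for neural genes or for the protocadherins below. Map2, a microtubule-associated protein of dendrites, was at 730, 781 and 701 in 6KO2 and at most 2.91 in 6KO1. Tubb3, a neuronal tubulin, was at 3181, 3584 and 3214 against 493, 580 and 522 in 6KO1. In WT, Map2 averaged 11.2 and Tubb3 721, so that both had their highest level in 6KO2. Clustered protocadherins, adhesion proteins of neurons, had 11 of 35 members lower (31.4%) and 0 higher (median -1.09, or -1.02 with genes without reads set to their bound), and 0 lower among those with a mean above 100. Pcdhb22 was at 1.75, 2.59 and 0.971 against 38.0, 45.4 and 40.6. Its WT mean was 165, above both lines.

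Germline genes, which H3K9 and DNA methylation keep silent in somatic cells, had 5 of 17 members higher (29.4%) and 0 lower, beside 9.77% and 7.1% of all genes (median 1.06). These 17 are the members of a list of 51 that passed the filter on low counts. A gene silent in WT passes it only through lines where it is expressed, so the share called is partly fixed by the filter. Rhox5, an X-linked homeobox gene of the reproductive tract, was at 3045, 3276 and 3390 in 6KO1 and 1031, 1034 and 1052 in 6KO2, against a WT mean of 7.59. Tex19.1 was at 436, 454 and 442 against 58.5, 61.3 and 57.0, and Tdrd5, a Tudor protein of the piRNA pathway, at 133, 127 and 129 against 12.3, 17.0 and 18.6. All 3 genes were above their WT mean in every library of both lines and highest in 6KO1. Olfactory and vomeronasal receptor genes were higher in 18 of 48 cases (37.5%) and lower in 3 (6.25%), with a median of 1.00. Only these 48 of 1784 listed receptors passed the filter, and their summed WT level was 34.4 to 46.8. They thus entered through lines where they are high, and their share is not comparable with that of all genes. With a mean above 100 only 1 was higher and 1 lower (median 0.37), beside 670 higher and 468 lower over all genes at that level. Among 338 zinc finger genes, which include the KRAB proteins that recruit Setdb1 to retroviral elements, 30 were higher and 6 lower, which is 8.88% and 1.78% beside 9.77% and 7.1% of all genes, and 17 were higher after centring on the chromosome medians. Their fold change was above 0 in 264 and below 0 in 74, beside 9509 and 9048 of all genes. The median was 0.33 beside 0.0186 over all genes, and 0.26 after centring.

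Imprinted genes, expressed from 1 parental copy, were split into 5 higher (20%) and 7 lower (28%) of 25, beside 9.77% and 7.1% of all genes, with a median of -0.03. Ndn, which encodes necdin and lies at chr7:62346569-62350262, was at 667, 653 and 648 in 6KO2 and had no read in 6KO1. It was thus at least 729-fold lower in 6KO1, against a floor of 3 counts over the group, and its WT mean was 0.634. H19 was at 12.3, 7.94 and 8.77 in 6KO2 and had no read in 6KO1 (at least 10.8-fold lower), below a WT mean of 241. The genes with the lowest fold changes also held Vat1l, which averaged 3.65 in 6KO1 and was at 2484, 3018 and 2750 in 6KO2, Tmem98, a transmembrane protein, and Rbms3, an RNA-binding protein. Tmem98 was at 562, 679 and 548 in 6KO2 and at most 1.75 in 6KO1, and Rbms3 at 814, 949 and 864 against at most 3.49. The WT means of 650 for Tmem98 and 903 for Rbms3 were close to 6KO2. At the other end, Eps8l2, an actin regulator of the EPS8 family, was at 744, 697 and 642 in 6KO1 and 14.4 or lower in 6KO2, and Fat2, an atypical cadherin, at 1266, 1130 and 1239 against 22.6, 23.8 and 11. Igfbp7, a secreted IGF-binding protein, was at 1656, 1741 and 1767 against 41.1, 19.3 and 24.1.

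The counts of the other lists are read beside 9.77% higher and 7.1% lower of all genes. None of 13 mitochondrially encoded genes (median 0.24) and none of 21 cholesterol synthesis genes (-0.37) was called. Among the former mt-Nd3 was at 62.0, 0 and 60.2 in 6KO1 and had no read in 6KO2 (adjusted p = 0.0734 by edgeR), a gene chosen after its values were seen. Of 81 ribosomal protein genes 0 were higher and 4 lower (4.94%), while 73 had a fold change below 0 and their median was -0.48. Rps26 was at 1740, 1838 and 1922 against 5112, 4713 and 5220. Glycolysis and hypoxia genes had 0 of 24 higher and 1 lower (median -0.11), unfolded protein and stress response genes 2 of 24 and 1 (0.0053), apoptosis genes 3 of 26 and 1 (0.23) and histone genes 4 of 65 and 3 (-0.19). MAP kinase genes had 3 of 35 higher (8.57%) and 5 lower (14.3%, median -0.24), Notch genes 3 of 13 (23.1%) and 2 (15.4%, median 0.13), and Hox genes 2 of 29 (6.9%) and 4 (13.8%, median -0.11). Oxidative stress genes had 6 of 16 higher (37.5%) and 0 lower with a median of 0.68, among them Gstm1, a glutathione transferase, at 329, 342 and 379 against 54.4, 67 and 46.1. Of chromatin regulators outside the 6 KMTs, 0 were higher and 2 lower of 13 DNA methylation genes (15.4%, median 0.02), 0 and 1 of 25 Polycomb genes (median 0.08), and 3 (11.5%) and 0 of 26 readers and cofactors of H3K9 methylation (median 0.01). The 2 lower ones were Tet1, a 5-methylcytosine dioxygenase, at 26.2, 15.6 and 25.2 against 61.6, 73.8 and 61.4, and Mbd2, a reader of methylated DNA, at 971, 971 and 1007 against 2002, 1955 and 2004. The 3 higher ones were Atf7ip2, a relative of the Setdb1 partner Atf7ip (log2 fold change 5.05), Cdyl2, a chromodomain protein (3.33), and Kdm7a, an H3K9 and H3K27 demethylase (1.95). Of the markers for other cell types, the blood markers had 2 higher, 1 lower and 1 not called of 4 tested and summed to 537 to 609 in 6KO1 and 134 to 172 in 6KO2. Cd68, the most abundant, was at 478, 524 and 463 against 104, 78.3 and 87.7, and Lyz2, the lower one, at 9.60, 6.91 and 1.94 against 28.7, 12.5 and 13.2. Epithelial markers had 1 higher and 1 lower of 3 tested and summed to 643 to 678 against 575 to 610, beside 31.7 to 44.8 in WT.

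Repeats differed at fewer elements than genes did. Of 1216 repeat elements 77 were called (6.33%), 61 higher (5.02%) and 16 lower (1.32%) in 6KO1, and 744 had no overlap between the lines (61.2%). Against WT, 398 elements were higher in 6KO1 (32.7%) and 32 lower (2.63%), and 272 were higher in 6KO2 (22.4%) and 25 lower (2.06%). The median log2 fold change of all repeats was 0.27, and 987 of the 1216 elements had a value above 0. With scaling factors taken from the repeats alone the calls were 31 higher and 33 lower, and the median was -0.020. The counts of higher and lower elements therefore depended on the scaling. A call needs a log2 fold change of at least 1 in size, which exceeds that shift by construction, so calls near the threshold can be lost with the other factors. Of 56 repeat families 1 was called (1.79%), the snRNA family, which was lower in 6KO1. Among families that passed the p threshold but not the fold threshold were ERVK and Satellite, both higher in 6KO1 without overlap. With factors from the genes their log2 fold changes were 0.94 and 0.85 (adjusted p = 6.25e-09 and 2.07e-09 by edgeR).

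**Figure D3:**
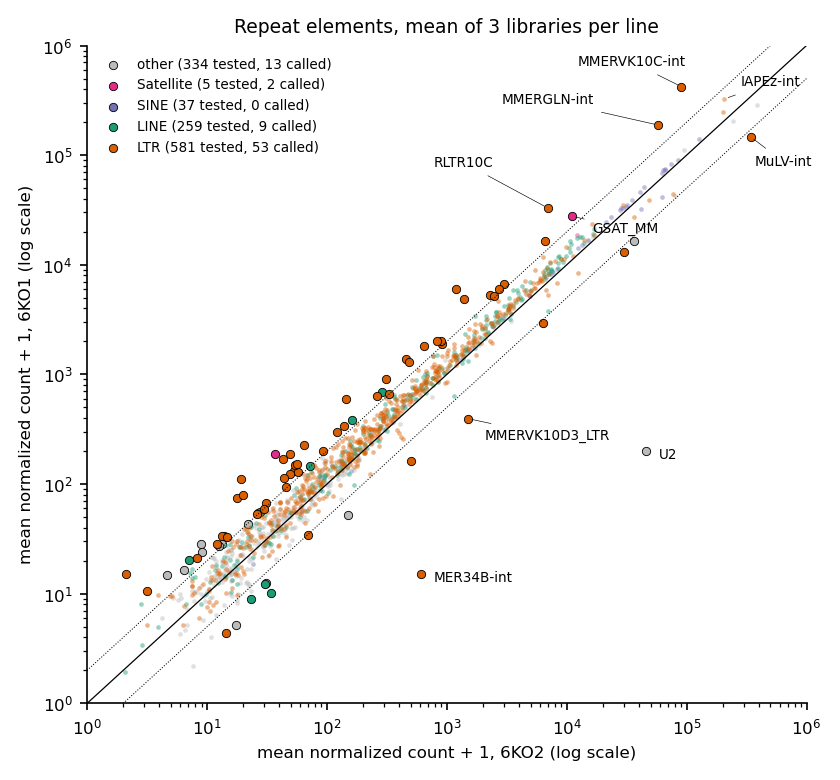
Mean normalized count of each tested repeat element in 6KO2 (horizontal) and 6KO1 (vertical), both axes logarithmic, coloured by repeat class, with the line of equal level. Most elements lie on or just above the line, MMERVK10C-int and MMERGLN-int stand above it, and MuLV-int and U2 below it.

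ERVK elements, LTR retroviruses that hold the IAP and MMERVK10C groups, had 31 of 270 tested members higher (11.5%) and 2 lower, beside 5.02% and 1.32% of all repeats, and 15 higher and 4 lower with factors from the repeats alone. Their summed level was 1126800 in 6KO1 and 586790 in 6KO2. The internal part of MMERVK10C was at 405320, 428240 and 432470 in 6KO1 and 90290, 90167 and 90323 in 6KO2, against a WT mean of 3299. Every 6KO1 library was above every 6KO2 library (log2 fold change 2.23 ± 0.09 SE, adjusted p = 2.96e-24 by edgeR). RLTR10C was at 31504, 33084 and 33768 against 6928, 7134 and 6982 (2.22). MMERVK10C-int made up 61.4% of the ERVK difference, IAPEz-int 22.2% and RLTR10C 4.77%. IAPEz-int, the most abundant IAP sequence, was at 308440, 337730 and 330360 against 211070, 202260 and 204300, which do not overlap but fall short of the fold threshold (0.66). IAP1-MM_I-int (1.34) and IAPEy-int (1.60) were called. Among the ERVK elements lower in 6KO1 was MMERVK10D3_LTR, at 388, 385 and 412 against 1541, 1408 and 1546.

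ERV1 elements were split. Of 106 tested, 11 were higher (10.4%) and 4 lower (3.77%), beside 5.02% and 1.32% of all repeats. The family's summed level was 743460 in 6KO1 and 799510 in 6KO2. MuLV-int, the internal part of murine leukaemia viruses, was at 162080, 137820 and 140780 in 6KO1 and 350540, 330690 and 344950 in 6KO2, against a WT mean of 4590 (log2 fold change -1.22). RLTR4_Mm was also lower, at 13308, 12487 and 13080 against 30728, 28719 and 30684. MMERGLN-int went the other way, at 196310, 182780 and 186030 against 62570, 53122 and 57310 (1.71), with its LTR, MMERGLN_LTR, at 2.33. None of these elements overlapped between the lines. MuLV-int took 19.8% of ERV1 counts in 6KO1 and 42.8% in 6KO2, and MMERGLN-int 25.3% and 7.21%. MMVL30-int was at 247140, 243400 and 252750 against 226740, 154830 and 220970, and was not called (0.30, adjusted p = 0.0674 by edgeR).

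**Figure D4:**
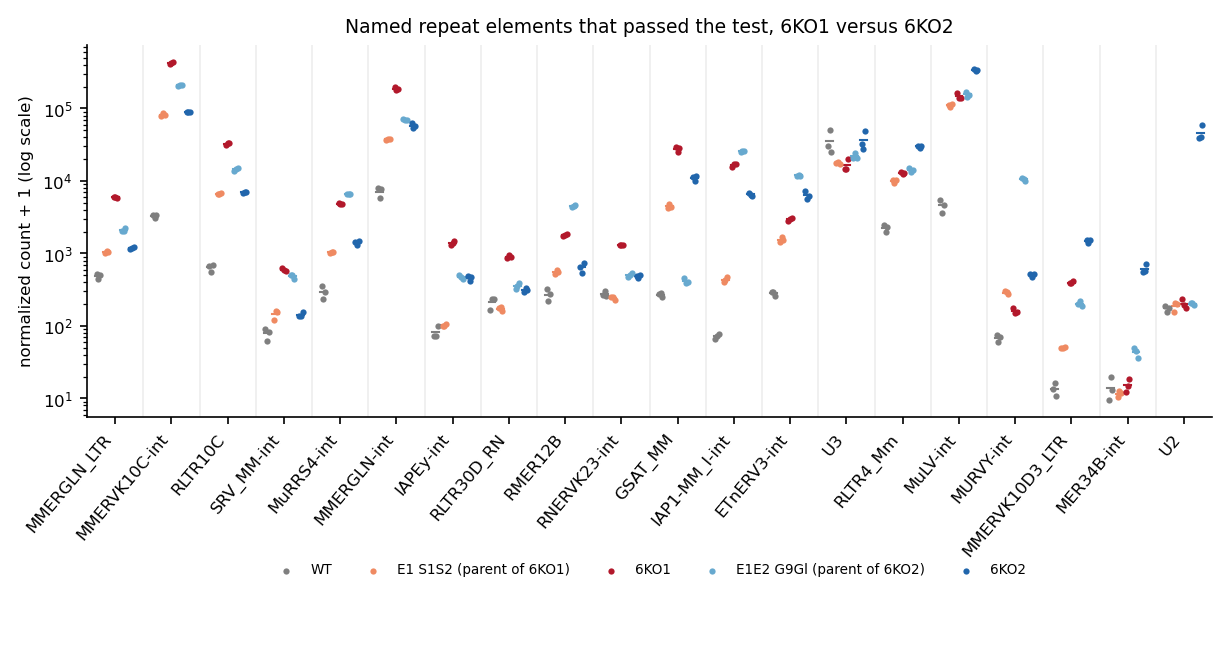
Normalized counts per library plus 1 (log axis) of the called repeat elements named by fold change in WT, the lines before the last CRISPR round and both 6KO lines, with each point 1 library. MMERVK10C-int, MMERGLN-int and GSAT_MM are higher in the 3 6KO1 libraries, and MuLV-int and U2 in the 3 6KO2 libraries.

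Satellites had 2 of 5 tested elements called, both higher (40%), beside 5.02% of all repeats. They were GSAT_MM and SYNREP_MM, the second at 166, 207 and 185 against 44.2, 27.2 and 37.3 and, like the L1 elements below, chosen after its values were seen. GSAT_MM, the major satellite of pericentric heterochromatin, was at 29603, 25057 and 28797 in 6KO1 and 11443, 9899 and 11633 in 6KO2, against a WT mean of 267 (log2 fold change 1.34). Both lines thus stood far above WT, with 6KO1 the higher in every library, and GSAT_MM made up 70.9% of the satellite difference. MMSAT4 was at 17510, 18957 and 19413 against 12660, 11448 and 12633 without a call (0.60), and IMPB_01 and ZP3AR overlapped. Of 226 L1 elements 4 were higher (1.77%) and 1 lower (0.442%), both shares below the 5.02% and 1.32% of all repeats. With factors from the repeats alone this turned to 1 higher and 4 lower. The 5 calls were all 5 prime end annotations such as L1MdA_II_5end_ORF1only (738, 624 and 698 against 264, 342 and 260) and the lower L1MdA_V_5end_ORF1only, and none of 37 SINE elements was called. As class totals, the ratio of 6KO1 to 6KO2 was 1.33 for LTR, 1.26 for LINE, 1.08 for SINE, 1.10 for DNA and 1.8 for satellite elements. The exact two-sided permutation p was 0.1 for each, the smallest that 3 against 3 libraries allow. With factors from the repeats alone the ratios were 1.09, 1.03, 0.884, 0.898 and 1.48, so the SINE and DNA totals turned to the other side. The LTR totals then overlapped, with 1684500 in 6KO1 replicate 1 and 1687400 in 6KO2 replicate 1 (exact permutation p = 0.2).

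U2, the spliceosomal snRNA as annotated among the repeats, gave the largest difference of any named element. It was at 233, 194 and 175 in 6KO1 and 39622, 39934 and 58393 in 6KO2, and its WT mean was 173 (log2 fold change -7.84 ± 1.30 SE, adjusted p = 4.19e-06 by edgeR). MER34B-int was at 11.3, 13.8 and 17.5 against 549, 572 and 708. U2 was not called by DESeq2. Within the line E2 (Eset2 disrupted) replicate 2 alone reached 38312, and so did replicate 2 of E1E2 with 39093, while E1E2 G9Gl, the line before the last round of 6KO2, averaged 202. Of the 7 snRNA elements tested 2 were called, U2 and U3, both lower (28.6%, beside 1.32% of all repeats), and the median was -0.0035. U3, a small nucleolar RNA, averaged 16491 in 6KO1 and 36192 in 6KO2 and held most of the family's remaining counts, so that the family stood at -1.11 on the log2 scale without U2. The call of U3 was lost without 6KO2 replicate 3 (-0.86).

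The lines from which 6KO1 and 6KO2 were made share no library with them, and differ from each other in genotype as well. E1 S1S2 against E1E2 G9Gl gave 1081 genes higher (5.82%) and 2644 lower (14.2%), or 20.1% in all, and 12 repeat elements higher (0.987%) and 398 lower (32.7%), or 33.7% in all. With factors from the repeats alone the latter were 81 higher and 222 lower, so the shares of repeats below hold for the factors from the genes. Of the 1813 genes higher in 6KO1 than in 6KO2, 218 (12%) were also higher in E1 S1S2, 634 (35.0%) were lower there and 961 (53%) were not called. Of the 1318 genes lower in 6KO1, 529 (40.1%) were also lower in E1 S1S2, 194 (14.7%) were higher and 595 (45.1%) were not called. Read from the parents' side, the 218 shared higher genes are 20.2% of the 1081, and the 529 shared lower genes 20% of the 2644. Among the 61 repeats higher in 6KO1, 39 (63.9%) were lower in E1 S1S2 than in E1E2 G9Gl and 3 (4.92%) higher, and of the 16 lower ones 7 (43.8%) were lower there too.

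The interferon list was among the groups that stood the other way round in the parent lines, with 37 of 57 genes lower and 4 higher in E1 S1S2 than in E1E2 G9Gl (median -1.50). Trim30a averaged 65.5 in E1 S1S2 and 3538 in E1E2 G9Gl, and Oas1g 21.1 and 718. Both were thus higher in E1E2 G9Gl than in 6KO2, where Trim30a was still above its WT mean. The 6KO2 line was made from clone E2 before 4-OHT, so the treated E1E2 G9Gl libraries do not show an earlier state of 6KO2. Antigen presentation genes had 13 of 17 lower and 1 higher in E1 S1S2, and Schlafen genes and GTPases 19 of 21 and 0. MMERVK10C-int likewise averaged 81810 in E1 S1S2 and 208130 in E1E2 G9Gl. Map2, at 2.09 and 669, and Ndn, at 0 and 503, were instead on the same side in the parent lines as in the 6KO lines. GSAT_MM averaged 4479 in E1 S1S2 and 417 in E1E2 G9Gl, with 6KO1 above the former and 6KO2 above the latter.

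Differences were spread unevenly over the chromosomes. The median log2 fold change of 1095 tested genes on chromosome 3 was 0.42, with 17.4% called higher and 5.48% lower, and that of 1384 genes on chromosome 7 was 0.34, with 16.4% and 3.97%. On chromosome 10 the median of 785 genes was -0.37, with 4.46% higher and 13.0% lower, beside 9.77% and 7.1% over all genes. The chromosome medians varied between replicates by an SD of 0.00557 to 0.0275 on the nuclear chromosomes. In the parent lines the median was 0.06 on chromosome 3, 0.21 on chromosome 7 and -0.19 on chromosome 10. Windows of 25 neighbouring genes with a median of at least 0.5 in size joined into 79 regions, 43 of them higher and 36 lower, which held 3639 genes. One on chromosome 10, at chr10:91116574-128090391, held 167 genes with a median of -0.63 and 150 of them below 0. Another, at chr3:103020426-116508208, held 143 genes with a median of 0.73. The part of these regional differences in the lists above was not tested beyond centring on the chromosome medians.

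**Figure D5:**
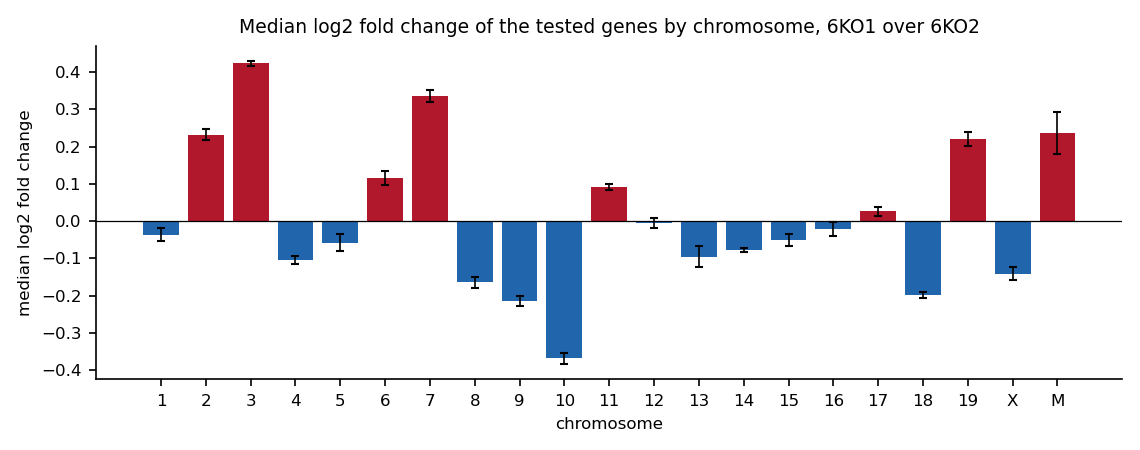
Median log2 fold change of 6KO1 against 6KO2 over the tested genes of each chromosome, with bars for the SD between replicates (n = 3 per line). Chromosomes 3 and 7 stand above 0 at 0.42 and 0.34, and chromosome 10 below 0 at -0.37.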

How the data were processed

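Total RNA of 24 libraries (8 conditions, 3 each) was analysed, of which 6KO1 and 6KO2 hold 3 each. The authors trimmed reads with cutadapt 1.8.1, aligned them to GRCm38 with STAR 2.5.2b and used TEtranscripts for counting, in which a read that matches several repeat copies is divided among them. The deposited values are raw counts per gene or repeat element. Each library was assigned to its line from the labels. Counts of all 24 libraries were fitted with edgeR 4.0.16 (R 4.3.3; TMM factors from the genes, used for repeats too; filterByExpr by condition; quasi-likelihood test, 1 coefficient per condition), with Benjamini-Hochberg adjustment over 18565 genes, 1216 repeat elements or 56 families. Class totals were compared by a two-sided exact permutation test. Lists have no test: their calls and median stand beside those of all genes. Tested on simulated counts with 200 changed features, edgeR found 200 among 18565 genes and 200 among 1216 repeats, with 0 other genes and 1 other repeat called. The changes made were 2 or 3 on the log2 scale, at 1 fixed spread and not at the lowest counts. The simulation thus gives no power for changes near the threshold of 1, for low counts or for features with a wide spread. Total counts of the 6 libraries (27298161 to 33800828) limit the precision of low counts. Named genes were the 6 KMTs, the 12 highest and 12 lowest fold changes among called protein coding genes with a mean of at least 200 and groups that do not overlap, up to 3 genes per list, and, for repeats, the 12 highest and 12 lowest called elements and the most abundant of each family, with exceptions named. Members and lists were chosen with earlier results of these data known. Alternatives were DESeq2 1.42.0, RLE factors, other filters, 6 libraries only, a replicate block, other scaling of repeats, chromosome centring, each library left out and, added after seeing the data, families without U2. Promoter windows came from RefSeq (GRCm38.p6) and gene positions from an annotation of GRCm38.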

Additional observations from a re-analysis of the deposited data

Results flagged for a closer look

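Signals outside the comparison of 6KO1 with 6KO2 stood out in single libraries of lines with fewer disruptions. U2 reached a normalized count of 38312 in E2 replicate 2 and 39093 in E1E2 replicate 2, while the other libraries of these lines had at most 193 and 187 and the highest WT library 189. MER34B-int reached 567 in E1E2 replicate 2, against at most 6.85 in the other E1E2 libraries and 19 in WT. Both features were also high in all 3 libraries of 6KO2, and low in 6KO1 and, for U2, in E1E2 G9Gl. The cause was not tested, and a difference between libraries and one between lines cannot be told apart.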

How the results depend on the processing

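Counts of genes called stayed between 1667 and 1819 higher and between 1263 and 1322 lower with DESeq2, RLE factors or only the 6 libraries in the fit, and were 2108 and 1493 without a filter on low counts and 1661 and 1306 after centring on the chromosome medians. Leaving out 1 library gave 1719 to 1747 genes higher and 1238 to 1306 lower, and 55 to 65 repeats higher and 12 to 19 lower. Deviations of same-numbered 6KO1 and 6KO2 libraries correlated with r of -0.00616, 0.279 and 0.286, and 4 of the 6 libraries correlated best with their own number. These few values cannot decide whether the replicate numbers pair the libraries, and the main fit treats them as unpaired. With the replicate block 1794 genes were higher and 1311 lower, 61 repeats higher and 17 lower, no named call was lost and MER45B was at -0.0041. Of the named features called, DESeq2 lost U2, Casp1, Mfng, Tek and Bglap, and the fit of 6 libraries lost Lyz2. Calls of Cbx7, Casp1, Gsta2, Mfng, Ephb6, Hist2h3c2, Hoxa13, Krt14, Tek, Lyz2, Bglap and U3 were lost without 1 or more single libraries, U3 standing at -0.86 without 6KO2 replicate 3, and Pou5f1 was called without 6KO1 replicate 1. The cause was not tested for these or for the changes given next, except where fewer features entered. Where only features with a mean above 100 were counted, fewer features entered by construction, and the calls fell to 670 genes higher and 468 lower, and to 33 repeats higher and 9 lower. List medians were then -0.24 for glycolysis, -0.14 for collagens, -0.69 for contractile genes, -0.063 for integrins, -0.24 for mesenchymal factors, 0.12 for Wnt, -0.030 for growth factors, 0.29 for imprinted, 1.45 for germline, -0.74 for neural, 0.30 for zinc fingers, -0.45 for protocadherins and 0.37 for olfactory receptors, so collagens, Wnt and imprinted genes changed sign. Members called higher were 0 for chemokines and Wnt, 1 for apoptosis, stress response, matrix proteases, neural, Hox and olfactory receptors, 2 for matrix proteins and 3 for collagens, imprinted and germline, and members called lower 0 for Polycomb, p53 targets, apoptosis, protocadherins and Schlafen and GTPases, 1 for DNA methylation, matrix proteases, integrins, Wnt, Notch, Hox and olfactory receptors, 2 for MAP kinases, collagens and zinc fingers, 3 for imprinted, 4 for chemokines, 5 for mesenchymal factors and neural and 6 for growth factors and guidance. Chromosome medians were -0.070 for 1, 0.21 for 2, 0.37 for 3, -0.13 for 4, -0.11 for 5, 0.087 for 6, 0.27 for 7, -0.21 for 8, -0.24 for 9, -0.43 for 10, 0.055 for 11, -0.035 for 12, -0.14 for 13, -0.10 for 15, -0.038 for 17, 0.17 for 19, -0.16 for X and 0.30 for M, with chromosome 17 changing sign. Without a fold change minimum the calls were 4644 genes higher and 4492 lower and 306 repeats higher and 31 lower. With factors from the repeats alone, 31 repeats were higher and 33 lower, 3 families were lower, and E1 S1S2 against E1E2 G9Gl gave 81 repeats higher and 222 lower. Class ratios were 1.09 for LTR, 1.03 for LINE, 0.884 for SINE, 0.898 for DNA and 1.48 for Satellite, and the log2 fold changes that changed sign were -0.082 for B1_Mus1, -0.14 for B3, -0.019 for MTD, -0.27 for L2a, -0.081 for MIR, -0.14 for Tigger5b_Glire, -0.047 for MurSatRep1, -0.17 for URR1A, -0.29 for MER45B, -0.22 for tRNA-Ala-GCY_, -0.22 for IMPB_01 and -0.15 for ZP3AR. Satellites without GSAT_MM had a ratio of 1.37. Centred on the chromosome medians, list medians were -0.19 for KMTs, 0.056 for H3K9 readers, 0.035 for Polycomb, 0.64 for p53 targets, -0.11 for mitosis, 0.081 for DNA replication, 0.16 for apoptosis, -0.092 for stress response, -0.19 for cholesterol synthesis, 0.0041 for mitochondrial genome, -0.69 for matrix proteins, -0.079 for matrix proteases, -0.55 for contractile genes, -0.34 for integrins, -0.45 for mesenchymal factors, -0.22 for Wnt, -0.26 for guidance, -1.58 for neural, 0.26 for zinc fingers, -0.89 for protocadherins and -0.12 for sex-linked, with KMTs and stress response changing sign. Members called higher were then 0 for KMTs, 1 for integrins and guidance, 2 for mitosis and mesenchymal factors, 4 for matrix proteases and 17 for zinc fingers, and members called lower 1 for DNA methylation and mitosis and 2 for ribosomal proteins. Fitted on the 6 libraries alone, 2 mitochondrial genes were higher, 5 histones lower and MER45B was at -0.0049. DESeq2 called 2 families lower and put Rrm1 at 0.0022, and RLE factors put it at 0.0022. Leaving out each library in turn, families lower ranged over 1 to 2, and list medians over 0.68 to 0.89 for sensors, 1.70 to 1.98 for antigen presentation, 0.71 to 0.80 for p53 targets, -0.041 to 0.022 for mitosis, 0.019 to 0.055 for DNA replication, 0.22 to 0.26 for apoptosis, -0.40 to -0.33 for cholesterol synthesis, -0.23 to -0.022 for glycolysis, 0.27 to 0.35 for mitochondrial genome, -0.26 to -0.18 for matrix proteases, -0.66 to -0.59 for contractile genes, -0.30 to -0.22 for integrins, -0.39 to -0.32 for mesenchymal factors, -0.24 to -0.094 for Wnt, -0.048 to 0.21 for Notch, -0.23 to -0.041 for growth factors, -0.033 to 0.26 for imprinted, -1.61 to -1.12 for neural, -0.21 to -0.027 for Hox, -1.45 to -1.04 for protocadherins and 0.88 to 1.18 for olfactory receptors. Members called higher ranged over 1 to 2 for mitosis, 1 to 2 for matrix proteases, 1 to 2 for mesenchymal factors, 1 to 2 for Wnt and 1 to 2 for Hox, and members called lower over 0 to 1 for Polycomb, 0 to 1 for interferon response, 0 to 1 for cholesterol synthesis and 1 to 2 for Schlafen and GTPases. Chromosome medians ranged over 0.40 to 0.43 for 3, -0.12 to -0.091 for 4, 0.32 to 0.34 for 7, -0.40 to -0.37 for 10, -0.081 to -0.061 for 14, 0.0095 to 0.018 for 17, -0.22 to -0.20 for 18, -0.15 to -0.12 for X and 0.24 to 0.35 for M, and single features over -0.018 to 0.033 for Rrm1, -0.048 to 0.058 for L2a and -0.11 to 0.056 for MER45B. Depth limits genes with a few counts, where a level of 0 is bounded by 3 counts over the group, and counting error does not cover differences between clones.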
